A study of Mus musculus with 23 samples.

Results

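The comparison described here is the step from T6 to T16 of a lipopolysaccharide (LPS) time course in mouse bone marrow-derived macrophages (BMDMs) labelled Stk40 KO. Its members are the 3 libraries with the group label KO T16 and the 3 with the label KO T6, which are 6 of the 23 libraries in the series. All 23 libraries hold polyadenylated RNA of BMDMs, macrophages grown in culture from bone marrow, that are labelled either Stk40 KO or wild type (WT). LPS, a component of the outer membrane of Gram-negative bacteria, is the labelled treatment at T6, T16 and T32, and T0 is the untreated group. No source used here gives the unit of time or the strain, age and sex of the mice. Beside the KO T6 and KO T16 groups, the WT T6 (3 libraries) and WT T16 (2 libraries) groups enter the comparison of the step between genotypes, and the KO T0 and KO T32 groups (3 libraries each) are given as levels only. Whether the replicates of a group are different mice, different cultures or repeats of 1 culture is not in the labels, and a p-value thus covers the spread among these libraries, which may be technical.

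Macrophages sense LPS through Toll-like receptor 4 (TLR4) with its partners CD14 and MD-2. The adaptors MyD88 and TRIF carry the signal to NF-kB, to the MAP kinases and to the interferon regulatory factors, which switch on cytokine, chemokine and, through secreted type I interferon, antiviral genes. Many early genes encode inhibitors of the same pathway, such as the NF-kB inhibitor A20 and the dual-specificity phosphatases, so that the response is limited in time. Stk40 encodes a pseudokinase of the Tribbles-related group that binds the ubiquitin ligase COP1, whose known substrates include C/EBP and ETS-family transcription factors.

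The labels were checked on Stk40 itself (ENSMUSG00000042608, chromosome 4, 126103957 to 126141029, plus strand, GRCm38). Its RNA stood at 388, 354 and 385 CPM (counts in every 1000000 counts of a library, with library sizes scaled by the trimmed mean of M-values, TMM) in the libraries labelled KO at T6 and at 166, 155 and 162 CPM at T16. The WT libraries had 322, 335 and 281 CPM at T6 and 95.97 and 143 CPM at T16. Stk40 RNA was thus not lower in the libraries labelled KO at either time, and a count over the whole gene does not show which exons the allele lacks, so the RNA does not check the genotype label. Within the libraries labelled KO, Stk40 fell by 1.22 ± 0.15 on the log2 scale from T6 to T16 (adjusted p = 1.6e-06). Here and below, ± is an approximate standard error of a log2 fold change: its size divided by the square root of the F statistic. Both F and p are from edgeR's quasi-likelihood test, with Benjamini-Hochberg adjustment of p over 15782 genes. A gene rose, fell or was called where the adjusted p was under 0.05.

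Totals were 23470896 to 32480773 counts in the KO T6 libraries and 29719310 to 44097733 in the KO T16 libraries. The 3 KO T16 libraries were close to each other (mean correlation with their group 0.9888 to 0.9902). KO T6 replicate 2 stood apart, with a mean correlation of 0.9631 against 0.9754 and 0.9759. It had 0.681% of counts on mitochondrial genes against 0.36% and 0.351%, and the acute phase gene Saa3 as its most abundant gene. Where leaving it out moved a list's count or its printed median by over 1.5 times, the value without it is given. Macrophage genes were abundant in all 6 libraries: Csf1r had 1962, 1073 and 1620.5 CPM at T6 and 1469.6, 1719 and 1445 CPM at T16, and Cd68 had 1862, 1028 and 1861 and 1619, 1459 and 1733 CPM. In bulk RNA, fewer cells of a type and less RNA per cell cannot be told apart.

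Between T6 and T16, 3821 genes rose in the macrophages labelled KO (24.2% of those tested) and 3448 fell (21.8%), together 46.1%. Of these, 2269 rose more than 2-fold (14.4%) and 1912 fell more than 2-fold (12.1%). Counts for the gene lists below are to be read beside the 24.2% and 21.8% of all genes. The median log2 fold change over all genes tested was 0.03, and the median size among called genes was 1.14. With libraries scaled by their totals in place of TMM, the median over all genes was 0.41, with 5954 higher and 1935 lower, so that 75.5% of calls were higher in place of 52.6%. Values under that scaling are read against that median, and are given beside the lists whose printed counts or median they turn. In 8718 genes (55.24%) the 3 libraries of one time did not overlap those of the other.

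**Figure D1:**
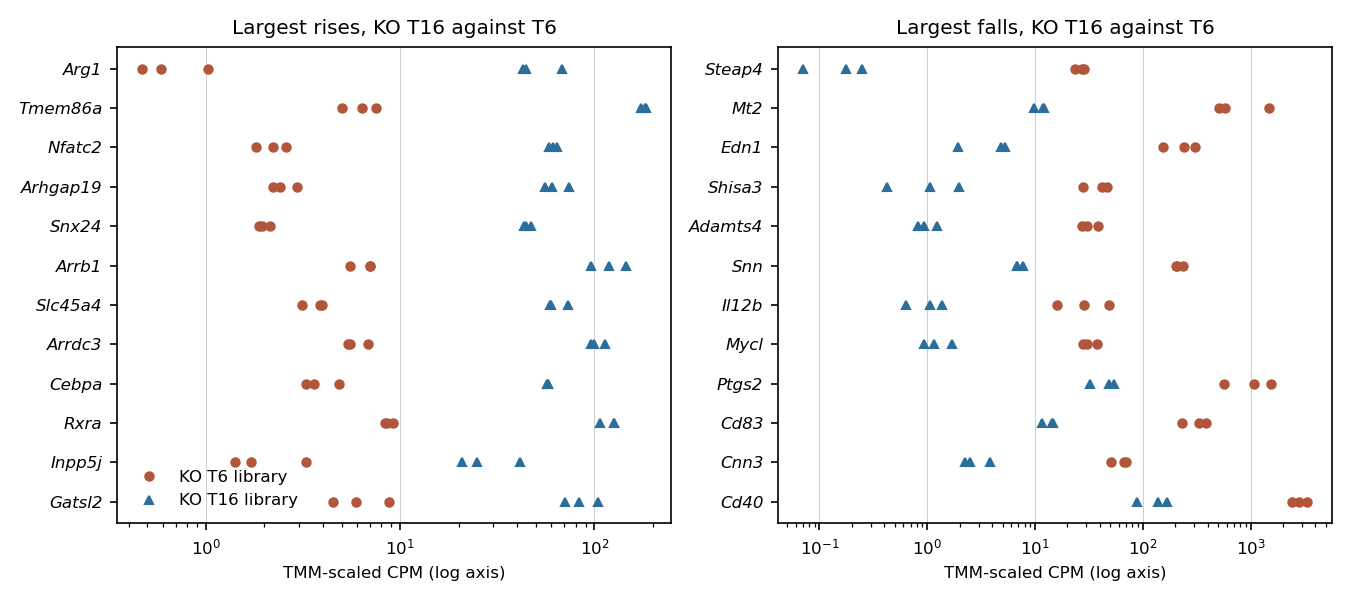
TMM-scaled CPM (log axis) in each KO T6 library (circles) and KO T16 library (triangles) for the 12 genes with the largest rises (left) and the 12 with the largest falls (right). In all 24 genes the groups are apart, and the libraries of one time lie close together beside the distance between times.

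The 12 largest rises include enzymes, transcription factors and signalling adaptors. Arg1 (chromosome 10, 24915221 to 24927484) encodes arginase 1, which breaks down arginine and competes with nitric oxide synthase for it. It had 1.02, 0.471 and 0.591 CPM at T6 and 44.3, 67.7 and 43.1 CPM at T16, a rise of 6.18 ± 0.45 on the log2 scale (72.6-fold, adjusted p = 1.4e-09). Each T16 library was more than 40 times above each T6 library. At T0 its mean was 0.228 CPM, so the T16 level was well above the untreated one.

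Unlike Arg1, the other 11 genes had T0 means above all of their T6 libraries. Cebpa, which encodes the myeloid transcription factor C/EBP alpha, had 3.28, 3.59 and 4.87 CPM at T6 and 57.2, 57.6 and 57.7 CPM at T16 (3.87 ± 0.19, adjusted p = 5.4e-12), beside a T0 mean of 133. Its 3 T16 libraries were nearly the same, all above T6 and below T0. Rxra, the retinoid X receptor that pairs with LXR, PPAR and vitamin D receptors, had 9.19, 8.60 and 8.32 CPM at T6 and 126, 126 and 107 CPM at T16 (3.78 ± 0.16, adjusted p = 9.4e-13), with a T0 mean of 89.3. Nfatc2, a calcium-regulated transcription factor, had 2.22, 2.59 and 1.82 and 61.4, 64.0 and 58.3 CPM (4.8 ± 0.19), with 64.8 CPM at T0. In Rxra the T16 libraries were above the untreated mean and in Nfatc2 just below it, and in both they were more than 10 times above every T6 library.

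The rest include membrane and signalling genes. Arrb1, which encodes beta-arrestin 1, had 6.97, 5.54 and 6.96 CPM at T6 and 118, 145 and 95.6 CPM at T16 (4.2 ± 0.17). Tmem86a, a lysoplasmalogenase, had 6.35, 7.48 and 5.003 and 173, 182 and 184 CPM (4.84 ± 0.20, adjusted p = 9.4e-13). The 3 libraries of each time were within a narrow band for both, with no overlap. Arhgap19 rose by 4.65 ± 0.18 on the log2 scale, the sorting nexin gene Snx24 by 4.49 ± 0.13, the arrestin-domain gene Arrdc3 by 4.12 ± 0.25, the transporter gene Slc45a4 by 4.12 ± 0.16, the inositol phosphatase gene Inpp5j by 3.75 ± 0.30 and Gatsl2 by 3.74 ± 0.20.

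The 12 largest falls include genes of secreted proteins, surface proteins and enzymes. Edn1, which encodes the vasoconstrictor endothelin 1, had 241, 154 and 305 CPM at T6 and 4.87, 1.92 and 5.28 CPM at T16 (-5.85 ± 0.45, adjusted p = 2.4e-09). Il12b, the shared p40 subunit of IL-12 and IL-23, had 28.7, 16.1 and 48.6 and 1.06, 0.640 and 1.38 CPM (-4.9 ± 0.60, adjusted p = 1.2e-06). Ptgs2, the inducible cyclooxygenase COX-2, had 1078, 564 and 1546 and 48.9, 32.5 and 54.6 CPM (-4.55 ± 0.43, adjusted p = 4.9e-08). The spread between T6 libraries was up to 3-fold for these genes, with KO T6 replicate 2 the lowest in each, but no T16 library came near it.

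Cd40 and Cd83, which encode surface proteins that act in T-cell help and antigen presentation, fell together. Cd40 had 2401, 3329 and 2794 CPM at T6 and 139, 89.1 and 168 CPM at T16 (-4.43 ± 0.31, adjusted p = 8.3e-10), and Cd83 had 232, 386 and 332 and 14.4, 11.6 and 14.7 CPM (-4.54 ± 0.27). Every T16 library was more than 10 times below every T6 library for both. Steap4, a metalloreductase, went from 28.5, 23.5 and 27.3 CPM to 0.0706, 0.249 and 0.175 CPM (-7.28 ± 0.51), close to its T0 mean of 0.0744 CPM. The metallothionein gene Mt2 fell by 6.26 ± 0.48, but 73.5% of its exonic bases are shared with another gene, so its reads are uncertain. Adamts4, an aggrecan-cleaving protease, fell by 5.01 ± 0.38, Shisa3 by 5.02 ± 0.46, Snn by 4.92 ± 0.25, the MYC-family gene Mycl by 4.64 ± 0.30 and the calponin gene Cnn3 by 4.46 ± 0.52.

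**Figure D2:**
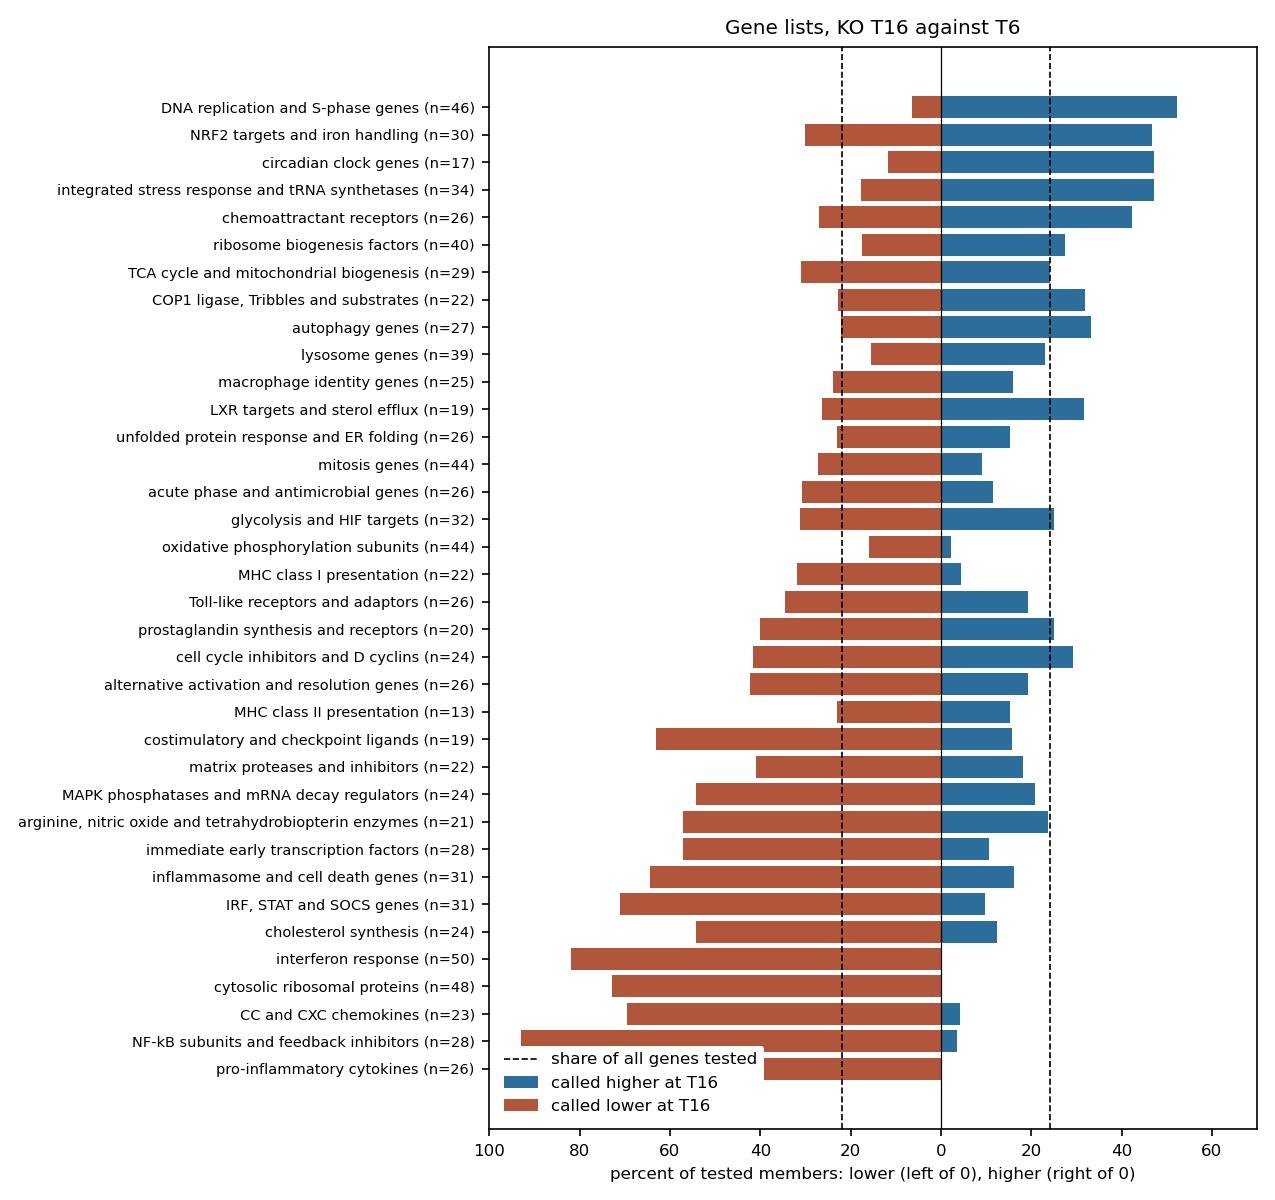
Percent of the tested members of each gene list called lower (left of 0) and higher (right of 0) at T16 in the libraries labelled KO, sorted by median log2 fold change; n is the number tested. Dashed lines mark the shares over all genes tested, 21.8% lower and 24.2% higher. Bars for cytokines, chemokines, NF-kB genes, interferon genes and ribosomal proteins reach far to the left of the line, and bars for S-phase, NRF2, circadian and stress response genes pass the line on the right.

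Promoter sequences of a few genes are shown first, because the gene groups that follow differ in which of these motifs they hold. Each stretch is 60 bases from RefSeq (GRCm38.p6), on the gene's own strand, 5′ to 3′, with the motif found in capitals. It lies within the 250 bases before an annotated start. The genes are the called members of their list with the lowest p whose window held the motif, apart from those on a chromosome that was left out. Trim30a, Igtp, Ifit1, Mcm5 and Mcm7 were chosen in this way after their values were seen. The first 4 hold the NF-kB consensus.
Il6, chr5:30013045-30013104, plus strand: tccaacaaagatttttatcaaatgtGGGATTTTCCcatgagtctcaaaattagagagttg
Ccl9, chr11:83578637-83578696, minus strand: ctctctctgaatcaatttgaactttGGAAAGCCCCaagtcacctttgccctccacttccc
Tnip3, chr6:65590319-65590378, plus strand: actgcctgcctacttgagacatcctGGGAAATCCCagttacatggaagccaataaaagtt
Tnfaip3, chr10:19015411-19015470, minus strand: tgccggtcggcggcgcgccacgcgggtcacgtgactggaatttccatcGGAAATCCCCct
The next 3 hold the core of the interferon-stimulated response element (ISRE), GAAA followed by any 2 bases and GAAA, on either strand.
Trim30a, chr7:104465195-104465254, minus strand: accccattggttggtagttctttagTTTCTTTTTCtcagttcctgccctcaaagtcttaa
Igtp, chr11:58199496-58199555, plus strand: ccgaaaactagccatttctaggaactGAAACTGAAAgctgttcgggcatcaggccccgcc
Ifit1, chr19:34640779-34640838, plus strand: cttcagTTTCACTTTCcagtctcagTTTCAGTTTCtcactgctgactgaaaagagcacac
Of the last 4, Mcm5 and Mcm7 hold an E2F motif (TTTGGCGC or TTTCCCGC, either strand), and Tef and Per1 hold the E-box CACGTG.
Mcm5, chr8:75109334-75109393, plus strand: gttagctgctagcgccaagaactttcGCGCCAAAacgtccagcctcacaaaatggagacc
Mcm7, chr5:138172015-138172074, minus strand: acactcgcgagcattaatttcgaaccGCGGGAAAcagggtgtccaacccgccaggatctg
Tef, chr15:81802519-81802578, plus strand: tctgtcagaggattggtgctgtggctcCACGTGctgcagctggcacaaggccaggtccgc
Per1, chr11:69098756-69098815, plus strand: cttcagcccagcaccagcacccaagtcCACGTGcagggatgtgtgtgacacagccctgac

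The motif shares differed between the gene groups. Of 13442 promoter windows (250 bases before the start) of 10571 genes tested, 4.72% held the NF-kB consensus on either strand. In windows of genes that fell more than 4-fold the share was 10.4%, and in those that rose more than 4-fold it was 3.17%. It was 40% in the NF-kB list (12 of 30 windows), 33.3% in the chemokines (5 of 15) and 21.7% in the cytokines (5 of 23), and highest, at 42.9% (9 of 21), in the MHC class I list, of which most members were not called. The ISRE core was in 2.9% of all windows and in 42.2% of those of the interferon list (19 of 45). The AP-1 motif TGANTCA was in 4.87% of all windows and in 9.34% of those that fell more than 4-fold. E2F motifs were in 2.3% of all windows and in 16.3% of the S-phase windows (7 of 43), and the E-box was in 8.06% of all and in 30% of the circadian windows (6 of 20), 35.1% of the lysosome windows (13 of 37) and 20% of the cholesterol synthesis windows (4 of 20). A match is a description of letters and not of a factor bound there.

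The cytokine genes fell as a group. Of 26 tested members of the pro-inflammatory cytokine list, 19 fell and 0 rose, with a median log2 fold change of -2.44 beside 0.03 for all genes. Without KO T6 replicate 2, 1 member rose. Tnf, the early master cytokine of the LPS response, had 1205, 1872 and 1565 CPM at T6 and 214, 122 and 229.6 CPM at T16 (-3.04 ± 0.25, adjusted p = 5.9e-09). Il6, whose product drives fever and the acute phase response, had 76.1, 110.2 and 105 and 5.51, 4.55 and 6.11 CPM (-4.17 ± 0.36, adjusted p = 1.1e-08). In both genes the lowest T6 library was more than 5 times above the highest T16 library. Yet Tnf stayed well above its T0 mean of 37.6 CPM at T16, and Il6 above its T0 mean of 0.0827 CPM.

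Members beside Tnf and Il6 differed in how far they fell. The list, although named pro-inflammatory, also holds the anti-inflammatory Il10 and the antagonist gene Il1rn. Il1b, the inflammasome-processed cytokine, had 1249, 1046 and 1456 CPM at T6 and 357, 342 and 344 CPM at T16 (-1.85 ± 0.31, adjusted p = 5.4e-05), and Il10, an anti-inflammatory cytokine, is given here although it was chosen after its values were seen, like Il1b: it had 308, 606 and 434 and 85.1, 49.3 and 102 CPM (-2.51 ± 0.43, adjusted p = 7.5e-05). Tnfsf9, the ligand of the costimulatory receptor 4-1BB, had 129.6, 299 and 173 CPM and 12.5, 10.6 and 12.5 CPM (-4.08 ± 0.31). All 3 had T16 libraries below every T6 library. Members that did not pass included Ifnb1, which encodes interferon beta, with a log2 fold change of 0.06 ± 0.38 (adjusted p = 0.92; 2.80, 5.65 and 2.27 CPM at T6 and 3.0002, 3.80 and 4.25 CPM at T16), Osm with 0.35 ± 0.19 and Il1rn, the IL-1 receptor antagonist, with -0.62 ± 0.27. The libraries of the times overlapped for Ifnb1 and Osm and did not for Il1rn.

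Of 23 chemokine genes tested, 16 fell and 1 rose, with a median of -1.37. The 1 that rose, Cxcl14, lost its call under several settings. Ccl3 and Ccl4, which attract monocytes and T cells, fell most sharply among the named members: Ccl3 had 2073, 2842 and 2779 CPM at T6 and 241, 146 and 249.97 CPM at T16 (-3.59 ± 0.31, adjusted p = 1.6e-08), and Ccl4 had 2811, 4513 and 3311 and 367, 230.2 and 336 CPM (-3.51 ± 0.44). Ccl9, a monocyte-derived chemokine already abundant in untreated cells, had 5395, 7319 and 5639 CPM at T6 and 2057, 1783 and 2232 CPM at T16 (-1.6 ± 0.20). Every T16 library was below every T6 library for all 3, and KO T16 replicate 2 was the lowest T16 library in each. Ccl22, a ligand of CCR4, fell by 2.54 ± 0.32. Ccl5, which encodes RANTES, did not pass and had 7800.2, 6899.5 and 7289 CPM at T6 and 11909, 10067 and 10702 CPM at T16 (0.57 ± 0.33, adjusted p = 0.16); Ccl2 had a log2 fold change of -0.15 ± 0.32.

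NF-kB subunits and their feedback inhibitors fell almost without exception: 26 of 28 fell, 1 rose and the median was -1.48. Tnfaip3 encodes A20, the ubiquitin-editing inhibitor of NF-kB, and had 2134, 2395 and 2519 CPM at T6 and 324, 242 and 361 CPM at T16 (-2.93 ± 0.20, adjusted p = 4e-10). Tnip3, an A20-binding protein, had 1154, 1056 and 1375 and 137, 108 and 168 CPM (-3.12 ± 0.18, adjusted p = 5.5e-11). Ripk2, the kinase downstream of NOD receptors, had 181, 281 and 238 and 30.2, 23.9 and 31.1 CPM (-3.04 ± 0.18). In each, every T6 library was more than 5 times above every T16 library. Tnfaip2 fell by 2.77 ± 0.20. The gene that rose was Traf3, which restrains the non-canonical NF-kB pathway, with 35.2, 30.9 and 40.4 CPM at T6 and 57.5, 53.8 and 56.2 CPM at T16 (0.65 ± 0.17, adjusted p = 0.0029). Without KO T6 replicate 3, 2 members rose. Irak3, which encodes the inhibitory kinase-like IRAK-M, did not pass (0.36 ± 0.16, adjusted p = 0.074).

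Receptors and adaptors of the Toll-like receptor (TLR) pathway were divided. Of 26 tested, 9 fell and 5 rose, with a median of -0.33 that was 0.06 when libraries were scaled by their totals. Cd14, the LPS co-receptor, had 3444, 2979 and 3354 CPM at T6 and 572, 580.2 and 538 CPM at T16 (-2.53 ± 0.17, adjusted p = 3.3e-10), and Myd88, the shared adaptor, had 854, 1050.3 and 887 and 336, 299 and 332 CPM (-1.53 ± 0.15). The kinase gene Irak2 fell by 1.79 ± 0.19 and Tlr6 by 1.22 ± 0.13. In contrast Tlr13, the endosomal sensor of bacterial ribosomal RNA, rose from 97.4, 46.6 and 83.6 to 381, 416 and 360.2 CPM (2.34 ± 0.21, adjusted p = 2.8e-08), and the kinase genes Irak4 and Irak1 rose by 0.9 ± 0.12 and 0.84 ± 0.17. Tlr4 itself had 75.1, 43.9 and 79.3 CPM at T6 and 73.2, 65.5 and 75.3 CPM at T16, with overlapping libraries (0.11 ± 0.24, adjusted p = 0.74).

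MAP kinase phosphatases and mRNA-decay factors moved in both directions: 13 of 24 fell and 5 rose (median -0.73). Dusp2, a nuclear phosphatase of ERK and p38, had 384, 595 and 402 CPM at T6 and 27.4, 24.3 and 21.98 CPM at T16 (-4.23 ± 0.45), and Dusp16, a JNK phosphatase, had 162, 170.2 and 217 and 34.4, 26.9 and 31.8 CPM (-2.56 ± 0.17, adjusted p = 3.6e-10). Dusp6, the cytosolic ERK phosphatase, went the other way, with 11.98, 11.1 and 13.01 CPM at T6 and 59.3, 52.0 and 56.3 CPM at T16 (2.21 ± 0.19, adjusted p = 1.3e-08). The groups did not overlap in any of these 3. Dusp14 fell by 3.60 ± 0.39 and Dusp5, which shares 22.1% of its exonic bases with another gene, by 2.30 ± 0.24. Dusp3 rose by 1.39 ± 0.15, and the mRNA-destabilising genes Zfp36l2 and Zfp36l1 rose by 1.75 ± 0.31 and 1.74 ± 0.30 (55.9% of the exonic bases of Zfp36l1 are shared with another gene).

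Immediate early transcription factors were mostly lower as well: 16 of 28 fell and 3 rose (median -0.80). The zinc-finger gene Egr2 fell by 2.89 ± 0.30, the orphan nuclear receptor gene Nr4a3 by 2.83 ± 0.34, and the small MAF genes Maff and Mafk by 2.40 ± 0.27 and 1.65 ± 0.19. Fos, an AP-1 subunit, rose from 79.7, 52.2 and 61.6 CPM at T6 to 151, 171 and 108 CPM at T16 (1.15 ± 0.25, adjusted p = 0.00074), without overlap and below its T0 mean of 222. Klf10 rose by 1.33 ± 0.27, and the call of Jun was lost under several settings.

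The interferon response fell broadly but by smaller amounts than the cytokines. Of 50 tested members, 41 fell and 0 rose, with a median of -1.10; with libraries scaled by their totals the median was -0.70 and 2 members rose. Parp9, which works with the ubiquitin ligase DTX3L in antiviral defence, had 779, 727 and 832 CPM at T6 and 319.8, 307 and 328 CPM at T16 (-1.29 ± 0.11, adjusted p = 1.5e-08). Oasl2, an oligoadenylate synthetase-like gene, had 2509, 2384 and 2511 and 1099, 1059.8 and 1062 CPM (-1.2 ± 0.12, adjusted p = 1.1e-07). In both the libraries of a time lay close together, and T16 stayed above the T0 means of 194 and 795 CPM. Parp14 fell by 1.33 ± 0.15 and Eif2ak2, which encodes the RNA-activated kinase PKR, by 1.29 ± 0.17. Among the members whose promoters are printed above, Igtp fell by 1.61, Ifit1 by 1.59 and Trim30a by 1.17. Cxcl10, an interferon-inducible chemokine plotted over time below and chosen after its values were seen, had 10452, 13550.0 and 11616 CPM at T6 and 1865, 1419 and 2003 CPM at T16 (-2.75 ± 0.47, adjusted p = 7.3e-05).

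Not every interferon gene took part. Irf7, the amplifier of type I interferon, had 5036, 4835 and 5079 CPM at T6 and 5698, 5035 and 5226 CPM at T16 (0.09 ± 0.23, adjusted p = 0.78). It did not pass, and the libraries of the times overlapped. In the list of interferon regulatory factors, STAT and SOCS genes, 22 of 31 fell and 3 rose (median -0.97). Stat5a, which signals for GM-CSF and other cytokines, had 225, 340.0 and 264 CPM at T6 and 30.9, 27.6 and 37.7 CPM at T16 (-3.1 ± 0.16, adjusted p = 9.4e-12), and Stat3, the IL-6 and IL-10 signal transducer, had 1351, 1392 and 1449 and 365, 337 and 363 CPM (-1.98 ± 0.11). Both were separated by several-fold with tight replicates. Irf8 fell by 1.56 ± 0.13 and Socs7 by 1.45 ± 0.14, whereas Stat6, the IL-4 signal transducer, rose by 0.59 ± 0.12 and the interferon gamma receptor gene Ifngr1 by 0.52 ± 0.13.

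**Figure D3:**
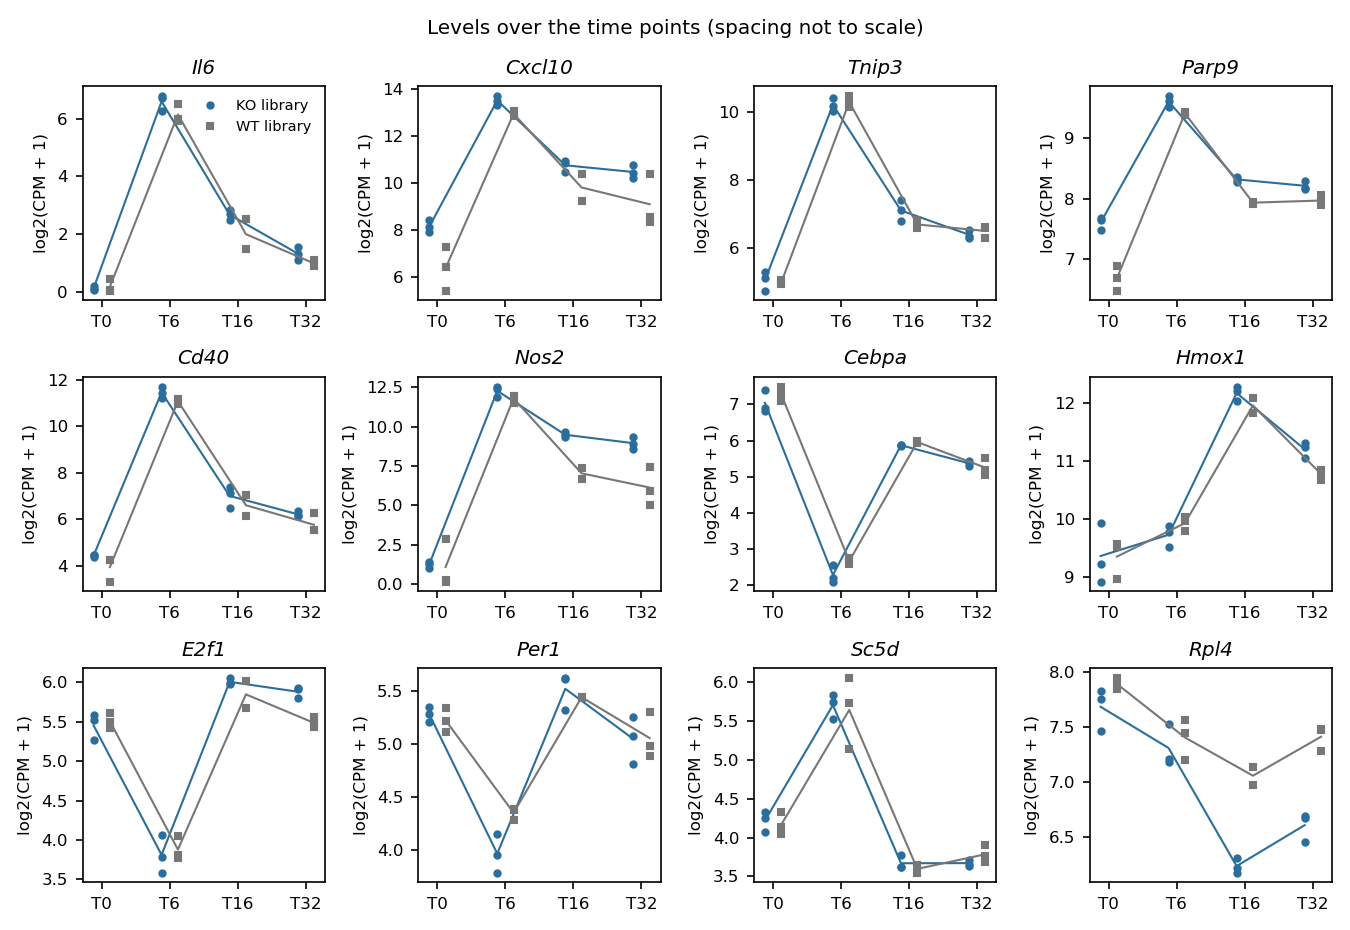
log2(TMM-scaled CPM + 1) in every KO library (circles) and WT library (squares) at T0, T6, T16 and T32 for 12 genes; lines join group means, and the time points are evenly spaced and not to scale. Il6, Cxcl10, Tnip3, Parp9, Cd40, Nos2 and Sc5d are lower at T16 than at T6 in the KO libraries, as is Rpl4, and Cebpa, Hmox1, E2f1 and Per1 are higher.

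The plot of levels over the time points sets the step beside T0 and T32. At T32 the KO means were 1.53 CPM for Il6, 1446 for Cxcl10, 296 for Parp9, 503 for Nos2 and 73.8 for Cd40. For Hmox1 the T32 mean was 2366 CPM, for Cebpa 40.4, for E2f1 57.99 and for Arg1, which is not plotted, 21.5 CPM. Of these 9 genes all but Cxcl10 had T32 means below all of their T16 libraries. These levels are a description, since the comparisons between times share libraries.

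Antigen presentation genes changed unevenly. Of 22 MHC class I pathway genes, 7 fell and 1 rose (median -0.28, and -0.16 without KO T6 replicate 2); with libraries scaled by their totals 7 fell, 4 rose and the median was 0.10. The peptide transporter gene Tap1 had 1812, 2294 and 1873 CPM at T6 and 877, 808 and 887 CPM at T16 (-1.22 ± 0.18, adjusted p = 1.4e-05), and Nlrc5, the transactivator of class I genes, had 1198, 971 and 1291 and 499.9, 412 and 437 CPM (-1.36 ± 0.16, adjusted p = 6.2e-07). Tap2 fell by 1.36 ± 0.20 and Tapbp, with 29.0% of its exonic bases shared, by 0.92 ± 0.17. The class I chain genes did not pass: B2m had 0.17 ± 0.27 and H2-K1 had -0.12 ± 0.19. The 1 gene that rose, H2-Q7, lost its call without any of 3 libraries (KO T6 replicate 1, KO T16 replicate 1 or KO T16 replicate 3).

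Of 13 class II pathway genes, 3 fell and 2 rose, but with libraries scaled by their totals 0 fell and 4 rose. Mr1 stands in this list, although its product is MHC class I-related and presents microbial vitamin B metabolites. It had 4.48, 2.12 and 3.23 CPM at T6 and 15.1, 16.7 and 18.3 CPM at T16 (2.34 ± 0.29, adjusted p = 1.5e-06). H2-DMb2 rose by 1.81 ± 0.30. Cd74, the invariant chain, had -0.55 ± 0.29 (adjusted p = 0.13). Without KO T6 replicate 1, or without KO T16 replicate 1, 1 member fell.

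Among costimulatory and checkpoint ligands 12 of 19 fell and 3 rose (median -0.66). Beside Cd40, Cd83 and Tnfsf9, the OX40 ligand gene Tnfsf4 had 20.4, 16.9 and 20.3 CPM at T6 and 1.13, 1.17 and 1.502 CPM at T16 (-3.91 ± 0.29, adjusted p = 1.4e-09). Vsir, which encodes the checkpoint ligand VISTA, had 158, 104 and 146 and 271, 353 and 268 CPM (1.13 ± 0.19, adjusted p = 5.7e-05), and Sirpa, the receptor for the CD47 signal, rose by 0.68 ± 0.17. Neither of the T16 groups of Tnfsf4 and Vsir overlapped T6. The call of Pdcd1lg2, the third gene that rose, was lost when single libraries were left out (all but KO T16 replicate 3 and KO T6 replicate 1).

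The arginine, nitric oxide and tetrahydrobiopterin list held both the largest rise of all named genes and strong falls: 12 of 21 fell and 5 rose (median -0.76). Nos2, the inducible nitric oxide synthase, had 5888, 3762 and 5388 CPM at T6 and 804, 644 and 700.1 CPM at T16 (-2.81 ± 0.74, adjusted p = 0.004), far above its T0 mean of 1.41 CPM at both times; it is named outside the rule, after its values were seen. Gch1, which makes the cofactor of that enzyme, had 241, 434 and 296 and 95.5, 78.8 and 107 CPM (-1.79 ± 0.20, adjusted p = 3.4e-07), and the arginine transporter gene Slc7a2 had 592, 525 and 699.9 and 178, 122 and 204 CPM (-1.85 ± 0.25). Thus the genes for arginine uptake, the cofactor and the synthase were lower at T16 in every library, while Arg1 was higher. Acod1, which makes itaconate, had 10913, 8941 and 10963 CPM at T6 and 2949.6, 2450.5 and 2804 CPM at T16 (-1.91 ± 0.28, adjusted p = 1.2e-05). The polyamine-acetylating gene Sat1 fell by 1.18 ± 0.14, and Asl, which regenerates arginine, rose by 0.72 ± 0.14. Without KO T16 replicate 2, 3 members rose in place of 5.

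Lipid mediator genes moved in both directions. Of 20 tested, 8 fell and 5 rose. Beside Ptgs2, the constitutive cyclooxygenase gene Ptgs1 had 13.1, 12.6 and 10.8 CPM at T6 and 2.82, 4.52 and 3.65 CPM at T16 (-1.73 ± 0.25, adjusted p = 1.3e-05). Ltc4s, the leukotriene C4 synthase gene (26.4% of exonic bases shared), fell by 3.46 ± 0.39 and the transporter gene Slco2b1 by 3.93 ± 0.47, both from low levels. Pla2g7, the platelet-activating factor hydrolase, had 117, 79.1 and 125 CPM at T6 and 537, 603 and 345 CPM at T16 (2.21 ± 0.25, adjusted p = 4.2e-07). Tbxas1, the thromboxane synthase, had 64.1, 34.2 and 54.9 and 159.5, 164 and 144 CPM (1.61 ± 0.21). No T6 library of these 2 reached T16. The prostaglandin E2 receptor gene Ptger2 rose by 1.8 ± 0.19 and the leukotriene A4 hydrolase gene Lta4h by 1.04 ± 0.13.

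Acute phase and antimicrobial genes moved in both directions, with 8 of 26 lower and 3 higher, and 3 lower and 7 higher with libraries scaled by their totals. Slc11a1, the phagosomal metal transporter NRAMP1, had 262, 205 and 259 CPM at T6 and 859, 822 and 804 CPM at T16 (1.77 ± 0.17, adjusted p = 4.7e-08). Marco, a scavenger receptor for bacteria, had 54.8, 18.96 and 36.9 and 349.9, 469.9 and 107 CPM (3.06 ± 0.73, adjusted p = 0.0019), with a 4-fold spread between the T16 libraries. Ptx3, a soluble pattern recognition protein, had 11.1, 22.97 and 12.8 and 0.882, 0.889 and 1.20 CPM (-3.96 ± 0.58). Saa3 did not pass (0.89 ± 0.42, adjusted p = 0.095): KO T6 replicate 2 had 24058 CPM against 10138 and 9531 CPM in the other T6 libraries, and T16 libraries had 30205, 26731 and 24000.0 CPM. Without KO T6 replicate 2, 5 members rose in place of 3.

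Genes linked to alternative activation and resolution moved in both directions: 11 of 26 fell and 5 rose (median -0.51), and with libraries scaled by their totals 6 fell and 8 rose (median -0.12). Stab1, a scavenger receptor of alternatively activated macrophages, had 379, 245 and 296 CPM at T6 and 1076, 1090.3 and 848 CPM at T16 (1.71 ± 0.21, adjusted p = 1.4e-06). Mrc1, the mannose receptor, had 295, 167 and 305 and 59.6, 59.1 and 70.8 CPM (-2.02 ± 0.26, adjusted p = 2.3e-06), and Anxa1, which encodes the pro-resolving annexin 1, had 1651, 1295 and 1686 and 429, 405 and 450.0 CPM (-1.85 ± 0.17). So markers often listed together parted, with Stab1 and Arg1 higher and Mrc1 and Anxa1 lower in every T16 library. Tgfbi and Thbs1 rose by 1.77 ± 0.27 and 1.79 ± 0.54, and the TAM receptor ligand gene Gas6 and Trem2 fell by 1.53 ± 0.15 and 1.51 ± 0.19.

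Matrix and chemotaxis genes fell at the protease end and rose at several receptors. Of 22 matrix proteases and inhibitors, 9 fell and 4 rose (median -0.71). Mmp13, a collagenase, had 4472, 3779.8 and 4599 CPM at T6 and 296, 227 and 301 CPM at T16 (-3.96 ± 0.32, adjusted p = 4.4e-09), and Plaur, the urokinase receptor, had 284, 542 and 397 and 37.2, 30.04 and 34.9 CPM (-3.58 ± 0.27, adjusted p = 1.8e-09). Both were more than 7 times lower in every T16 library than in any T6 library. Mmp12 fell by 1.92 ± 0.32, and Adam8, Mmp8 and Mmp27 rose by 1.02 ± 0.20, 1.27 ± 0.28 and 1.13 ± 0.24. Of 26 chemoattractant receptors, 11 rose and 7 fell, but 6 rose without KO T6 replicate 2. Cmklr1, the chemerin receptor, had 51.1, 41.3 and 52.9 CPM at T6 and 156, 134 and 129.5 CPM at T16 (1.53 ± 0.26, adjusted p = 6.8e-05). Hcar2, the niacin receptor, had 124, 138 and 131 and 13.5, 10.1 and 10.8 CPM (-3.51 ± 0.41), and Ccrl2 fell by 2.41 ± 0.32. C5ar2, Ltb4r1 and Cxcr4 rose by 1.99 ± 0.21, 1.89 ± 0.34 and 1.43 ± 0.33, Cxcr3 fell by 2.03 ± 0.31 and Gpr84 (39.5% of exonic bases shared) by 1.87 ± 0.25.

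Inflammasome and cell death genes were mostly lower: 20 of 31 fell and 5 rose (median -0.89). Nlrp3, the inflammasome sensor, had 736, 639.8 and 822 CPM at T6 and 154, 115 and 148 CPM at T16 (-2.4 ± 0.21, adjusted p = 1.8e-08). The DNA sensor gene Aim2 fell by 1.71 ± 0.13 and Casp4, which encodes the caspase-11 that senses cytosolic LPS, by 1.59 ± 0.16. The sensor gene Nlrp1b, the survival gene Bcl2 and the sensor gene Nlrc4 rose by 1.75 ± 0.32, 1.22 ± 0.30 and 0.93 ± 0.24, as did Nlrp1a (1.89 ± 0.43), a near copy of Nlrp1b whose reads could be split between them.

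Redox and iron genes rose more often than they fell. Of 30 NRF2 target and iron handling genes, 14 rose and 9 fell (median 0.48), and 17 rose and 4 fell with libraries scaled by their totals. Hmox1, the heme-degrading oxygenase, had 882, 948 and 735 CPM at T6 and 4707, 4967 and 4182 CPM at T16 (2.43 ± 0.22, 5.40-fold, adjusted p = 1.9e-08), beside 689.7 CPM at T0. Slc40a1, the iron exporter ferroportin, had 11.5, 9.54 and 11.5 and 67.8, 83.8 and 60.9 CPM (2.71 ± 0.21, adjusted p = 2.3e-09), still below its T0 mean of 247 CPM. Tfrc, the transferrin receptor through which iron enters, had 85.8, 86.1 and 91.4 and 28.9, 28.1 and 32.1 CPM (-1.56 ± 0.29, adjusted p = 0.00017). The exporter and heme oxygenase were thus higher and the importer lower in all 3 T16 libraries. Osgin1 and the ferrireductase gene Steap3 rose by 2.28 ± 0.19 and 2.0 ± 0.19. The iron transporter gene Slc11a2 and the thioredoxin gene Txn1 fell by 1.02 ± 0.11 and 1.10 ± 0.24; Hamp, the hepcidin gene, fell by 4.54 ± 0.82 but was under 1.5 CPM in every library.

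Sterol synthesis genes mostly fell. Of 24 cholesterol synthesis genes, 13 fell and 3 rose (median -1.02); with libraries scaled by their totals 10 fell and 8 rose (median -0.63). Sc5d, a late enzyme of the pathway, had 52.7, 45.3 and 56.4 CPM at T6 and 11.3, 11.3 and 12.7 CPM at T16 (-2.13 ± 0.17, adjusted p = 6.5e-09). Cyp51 had 41.9, 39.8 and 36.02 and 8.68, 9.17 and 7.71 CPM (-2.2 ± 0.31), Hmgcs1 fell by 1.54 ± 0.20 and the pathway's regulator Srebf2 by 1.18 ± 0.19. Dhcr7 rose by 1.1 ± 0.19. The calls of Ebp and Mvk were lost without several single libraries, leaving 1 riser without any of KO T6 replicates 1 and 3 and KO T16 replicates 1 and 2.

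Of 19 LXR target and sterol efflux genes, 6 rose and 5 fell, with a median near 0, and 9 rose and 2 fell with libraries scaled by their totals. Nr1h3, which encodes LXR alpha, had 89.1, 115 and 77.7 CPM at T6 and 254, 237 and 241 CPM at T16 (1.38 ± 0.25, adjusted p = 0.00012), and Soat1, which esterifies cholesterol, had 203, 190.2 and 175 and 469.8, 476 and 499.9 CPM (1.35 ± 0.16). Ch25h, which makes 25-hydroxycholesterol, had 149.97, 212 and 191 and 21.001, 9.39 and 24.8 CPM (-3.32 ± 0.40, adjusted p = 1.1e-06). None of these overlapped between times. Scd2 and the endosomal cholesterol transporter gene Npc1 rose by 2.12 ± 0.26 and 1.03 ± 0.20, Cyp27a1 fell by 1.83 ± 0.22, and Abca1 and Apoe did not pass (0.88 ± 0.42 and -0.43 ± 0.34). Without KO T6 replicate 1, or without KO T16 replicate 1 or 3, 3 members fell in place of 5.

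Energy metabolism genes moved in both directions. The share called higher was 25% in the glycolysis list and 24.1% in the TCA cycle list, beside 24.2% of all genes. The shares called lower were 31.2% and 31%, beside 21.8% of all genes. Of 32 glycolysis and HIF target genes, 10 fell and 8 rose; without KO T16 replicate 2 only 5 rose, and with libraries scaled by their totals 6 fell and 13 rose. The phosphofructokinase gene Pfkp had 227, 226 and 235 CPM at T6 and 42.4, 43.6 and 38.8 CPM at T16 (-2.46 ± 0.14, adjusted p = 3.6e-11), and the glucose transporter gene Slc2a1 had 354, 276 and 335 and 109, 126 and 77.6 CPM (-1.63 ± 0.20). Pfkfb4, which makes the activator fructose 2,6-bisphosphate, had 14.2, 13.1 and 11.7 and 46.9, 50.0 and 43.8 CPM (1.85 ± 0.18, adjusted p = 7.7e-08). Uptake and the platelet-type isoform were lower and the regulator higher, with no overlap. Hk2 and the hypoxia-inducible gene Ndrg1 fell by 0.96 ± 0.12 and 2.07 ± 0.21, and Pkm, Gpi1 and Pfkm rose by 0.98 ± 0.19, 0.92 ± 0.17 and 0.78 ± 0.17. Of 29 TCA cycle and mitochondrial biogenesis genes, 9 fell and 7 rose. The risers included Mdh2 (0.63 ± 0.14), Idh1 (0.7 ± 0.13) and Polrmt (0.97 ± 0.12). Dld (-0.75), Slc25a1 (-0.747), Tfam (-0.587) and Nrf1 (-0.515) were among the fallers. With libraries scaled by their totals 0 fell and 14 rose.

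Of 44 oxidative phosphorylation subunits, 7 fell and 1 rose, and without KO T6 replicate 2 the counts were 3 and 4. With libraries scaled by their totals 2 fell and 13 rose, and the median turned from -0.25 to 0.13. The gene that rose was Sdhb, with 68.7, 76.4 and 67.2 CPM at T6 and 124, 142 and 128 CPM at T16 (0.9 ± 0.13, adjusted p = 1.6e-05). Uqcrfs1, the Rieske iron-sulfur subunit of complex III, had 76.3, 127 and 77.7 and 34.8, 36.7 and 38.4 CPM (-1.36 ± 0.17, adjusted p = 2.2e-06). KO T6 replicate 2 was the highest library for both subunits at T6, and summed over the 44 genes it had 4689 CPM beside 3326 and 3354 CPM in the other T6 libraries and 3003 to 3190 CPM at T16.

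Lysosome and autophagy lists held more risers than fallers, with medians close to that of all genes. Of 39 lysosome genes, 9 rose and 6 fell (median 0.03), and of 27 autophagy genes, 9 rose and 6 fell (median 0.08). The medians were -0.03 and 0.04 without KO T6 replicate 2, and with DESeq2 size factors -0.06 and -0.01. With libraries scaled by their totals, 21 and 15 rose and 2 fell in each list. Tfeb, the transcription factor of lysosome biogenesis, had 15.4, 13.7 and 12.6 CPM at T6 and 49.5, 53.1 and 48.9 CPM at T16 (1.86 ± 0.18, adjusted p = 6.1e-08). Hexa, a lysosomal hexosaminidase, had 973, 1301 and 902 and 431, 468 and 511 CPM (-1.17 ± 0.15, adjusted p = 1.8e-06). The sialidase gene Neu1 and the channel gene Mcoln1 rose by 0.87 ± 0.15 and 0.6 ± 0.11, Sgsh (21.6% of exonic bases shared) rose by 1.83 ± 0.17, and Cln3 fell by 0.76 ± 0.13. Among autophagy genes, Atg7, Atg5, Ulk1 and Wipi1 rose by 1.35 ± 0.18, 1.13 ± 0.13, 1.0 ± 0.16 and 0.93 ± 0.17, while the receptor gene Optn had 90.2, 82.2 and 90.8 and 24.95, 20.3 and 26.3 CPM (-1.88 ± 0.16) and Atg16l1 fell by 0.96 ± 0.15. The share of lysosome genes that rose, 23.1%, was near the 24.2% of all genes.

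Amino acid and stress genes rose more often than they fell. Of 34 integrated stress response and tRNA synthetase genes, 16 rose and 6 fell (median 0.31). Sesn2, a leucine sensor and inhibitor of mTORC1, had 8.34, 5.83 and 7.28 CPM at T6 and 39.3, 43.4 and 30.9 CPM at T16 (2.4 ± 0.19, adjusted p = 4.2e-09), and the methionyl-tRNA synthetase gene Mars had 7.77, 7.83 and 8.19 and 31.9, 33.3 and 32.4 CPM (2.04 ± 0.22). Wars, the interferon-inducible tryptophanyl-tRNA synthetase, had 309.7, 337 and 331 and 67.9, 60.3 and 74.1 CPM (-2.27 ± 0.15, adjusted p = 4.9e-10). Within the synthetases, therefore, members moved in opposite directions without overlap. Yars and Aldh18a1 rose by 1.01 ± 0.12 and 1.41 ± 0.21. Psat1 and Ppp1r15a, which encodes GADD34, fell by 2.28 ± 0.22 and 1.53 ± 0.26, and Cth by 3.86 ± 0.75 from under 1.5 CPM. Of 26 genes of the unfolded protein response and protein folding in the endoplasmic reticulum, 6 fell and 4 rose, but 3 fell and 13 rose with libraries scaled by their totals; the chaperone BiP gene Hspa5 had 1795, 1282 and 1944 CPM at T6 and 698, 738 and 713 CPM at T16 (-1.22 ± 0.19), Ssr3 and Syvn1 fell by 1.55 ± 0.14 and 1.11 ± 0.15, and Pdia4 rose by 1.0 ± 0.18. Only 1 to 2 of the 4 rose without KO T6 replicate 2, KO T6 replicate 3 or KO T16 replicate 2.

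Cytosolic ribosomal protein genes moved together: 35 of 48 fell and 0 rose, with a median of -1.16. Rpl4, a protein of the large subunit, had 145, 184 and 148 CPM at T6 and 71.5, 73.7 and 78.7 CPM at T16 (-1.09 ± 0.13, adjusted p = 9.6e-07), and Rpl23 had 59.1, 102 and 61.2 and 26.4, 28.4 and 32.1 CPM (-1.35 ± 0.22, adjusted p = 3.5e-05). All T16 libraries were below all T6 libraries, and KO T6 replicate 2 was the highest of the 6 in both genes. Without that library 18 members fell and the median was -0.81; with libraries scaled by their totals 23 fell and the median was -0.79. Summed over the 48 genes, the levels were 2094, 3729 and 2054 CPM at T6 and 1186, 1199 and 1262 CPM at T16. These genes have many processed copies in the genome, and counts of uniquely aligned reads may miss or split their reads, so their levels are uncertain. Rps4x fell by 1.52 ± 0.23. Split into 5 bins by exonic length, the shortest genes (64 to 1367 bases) had a median of -0.14, beside 0.05 to 0.09 in the other bins; the part of length in the ribosomal protein result was not tested.

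**Figure D4:**
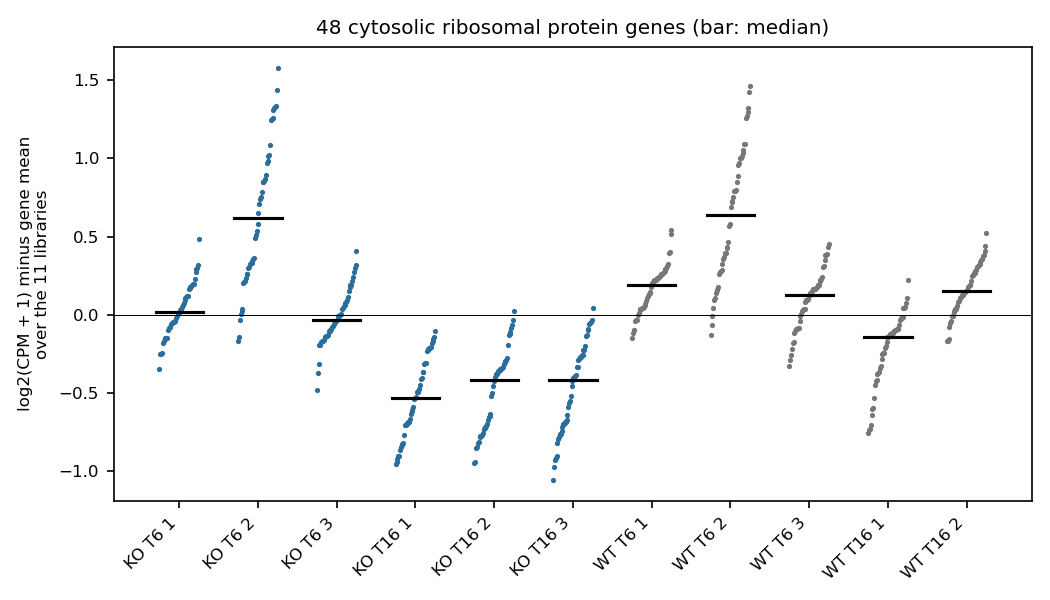
Each point is 1 of 48 cytosolic ribosomal protein genes, as log2(CPM + 1) minus the gene's mean over the 11 libraries shown; black bars are medians. The medians of the KO T16 libraries are -0.53, -0.41 and -0.41, below those of KO T6 (0.02, 0.62 and -0.03), and the second T6 library of each genotype is the highest of its group.

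Factors that build ribosomes did not follow the ribosomal proteins. Of 40 ribosome biogenesis factors, 11 rose and 7 fell (median 0.10), and 3 fell without KO T6 replicate 2 (median 0.255). Polr1b and Polr1a, subunits of RNA polymerase I, rose by 1.45 ± 0.23 and 0.89 ± 0.15, with Polr1a at 10.6, 9.13 and 12.3 CPM at T6 and 18.7, 19.4 and 21.1 CPM at T16. Rrp1b and Heatr1 rose by 1.58 ± 0.26 and 0.69 ± 0.14. Wdr43 had 101, 131 and 126 and 34.1, 30.8 and 39.5 CPM (-1.78 ± 0.13, adjusted p = 1.5e-09), with every T16 library below T6. With libraries scaled by their totals, 20 rose and 1 fell. Without KO T16 replicate 1 or 2, 4 fell.

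Genes of DNA replication rose as a group. Of 46 replication and S-phase genes, 24 rose and 3 fell, with a median of 0.60. E2f1, the transcription factor that drives entry into S phase, had 12.8, 15.7 and 11.01 CPM at T6 and 62.5, 65.6 and 61.8 CPM at T16 (2.27 ± 0.14, adjusted p = 1.3e-10), beside a T0 mean of 43.03. Mcm2 and Mcm3, subunits of the replicative helicase, had 3.11, 2.41 and 2.46 and 7.37, 7.66 and 6.19 CPM at T6 and 15.6, 15.3 and 11.99 and 24.2, 21.9 and 17.8 CPM at T16, rises of 2.42 ± 0.20 and 1.59 ± 0.15. All 3 genes were low at T6 and near or above the untreated mean at T16, with no overlap. Pold1, a DNA polymerase subunit, rose by 1.97 ± 0.17, and Mcm5 and Mcm7, whose promoters are printed above, by 1.72 and 1.02. The clamp loader gene Rfc3 fell by 1.48 ± 0.16, the cyclin E gene Ccne1 by 1.77 ± 0.23 and Mcm10 by 0.91 ± 0.19, and Pcna did not pass (0.03 ± 0.17, adjusted p = 0.91). Without KO T6 replicate 2 or 3, 5 fell in place of 3.

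Mitotic genes did not rise with them. Of 44 tested, 12 fell and 4 rose (median -0.18, 0.01 without KO T6 replicate 1 and -0.33 without KO T6 replicate 2); with libraries scaled by their totals 7 fell, 11 rose and the median was 0.21. Mki67, the proliferation marker Ki-67, had 42.4, 45.6 and 45.8 CPM at T6 and 12.9, 13.3 and 13.3 CPM at T16 (-1.76 ± 0.21, adjusted p = 8.1e-07), with very little spread. Kif4, Cenpe and the spindle checkpoint gene Mad2l1 fell by 2.98 ± 0.47, 1.42 ± 0.24 and 0.99 ± 0.17, the condensin gene Ncaph rose by 2.28 ± 0.27, and Top2a did not pass (-0.06 ± 0.29). The other 3 risers were under 5 CPM and each lost its call without KO T6 replicate 2; without KO T6 replicate 3 or KO T16 replicate 2, 2 rose. Of 24 cell cycle inhibitors and D cyclins, 10 fell and 7 rose (median -0.47, and -0.13 without KO T6 replicate 2), and 8 fell and 8 rose with libraries scaled by their totals. Cdkn1a, which encodes the inhibitor p21, had 1429, 2316 and 1653 CPM at T6 and 284, 273 and 292 CPM at T16 (-2.67 ± 0.18, adjusted p = 4e-10), and the cyclin D2 gene Ccnd2 had 568, 406 and 589 and 57.9, 51.4 and 46.4 CPM (-3.33 ± 0.29). The cyclin G2 gene Ccng2 and the p53 ligase gene Mdm2 fell by 1.80 ± 0.16 and 1.31 ± 0.16. Rb1, Rbl2 (21% of exonic bases shared), Cdk2 and Cdk4 rose by 1.79 ± 0.34, 1.08 ± 0.18, 1.08 ± 0.18 and 0.84 ± 0.13.

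Clock genes rose more often than they fell. Of 17 tested, 8 rose and 2 fell (median 0.34, and 0.59 without KO T6 replicate 2), and the 2 calls of a fall, Nfil3 and Cry1, were each lost without single libraries. Per1 and Per2 encode the period repressors of the clock; Per1 had 16.8, 12.8 and 14.5 CPM at T6 and 48.2, 47.8 and 39.0 CPM at T16 (1.61 ± 0.14, adjusted p = 2.1e-08), and Per2 had 2.44, 1.59 and 2.23 and 11.8, 13.6 and 11.2 CPM (2.53 ± 0.27). The PAR bZIP output genes Tef and Dbp had 9.32, 14.6 and 10.5 and 1.33, 3.30 and 2.23 CPM at T6 and 48.7, 53.3 and 50.6 and 14.2, 19.1 and 17.6 CPM at T16 (2.15 ± 0.18 and 2.91 ± 0.34). None of the 4 overlapped between times. Tef and Dbp stayed below their T0 means of 113 and 64.8 CPM, whereas Per1 and Per2 were above theirs (37.8 and 4.11 CPM). Clock and Nr1d1 did not pass (0.23 ± 0.26 and 0.34 ± 0.27). The labels give no time of day of collection.

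The COP1 ligase, Tribbles and substrate list concerns the ligase that the Stk40 protein binds, the Tribbles genes and substrates of the ligase. Of 22 tested, 7 rose and 5 fell (median 0.08, and -0.06 without KO T6 replicate 2). Trib1, the Tribbles pseudokinase that recruits COP1 to C/EBP alpha, had 70.7, 63.7 and 64.3 CPM at T6 and 198, 172 and 178 CPM at T16 (1.46 ± 0.23, adjusted p = 2.3e-05). Cebpd, the acute phase C/EBP, had 108, 225 and 113 and 12.6, 12.8 and 13.3 CPM (-3.52 ± 0.41, adjusted p = 6.7e-07), and Etv5, an ETS factor of the PEA3 group, had 5.33, 2.94 and 5.05 and 17.6, 15.96 and 13.4 CPM (1.81 ± 0.24). Within the C/EBP family Cebpa and Cebpg (0.65 ± 0.11) were therefore higher and Cebpd lower, with no overlap in any. Ets2 fell by 0.92 ± 0.17. Rfwd2, the symbol in these files for Cop1, had 12.8, 17.02 and 13.2 CPM at T6 and 10.6, 10.7 and 11.9 CPM at T16 and did not pass (-0.37 ± 0.16, adjusted p = 0.069).

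Of 25 macrophage identity genes, 6 fell and 4 rose, with a median of -0.01. The median was -0.18 without KO T6 replicate 2, and with libraries scaled by their totals 5 fell, 10 rose and the median was 0.39. The pan-leukocyte lysosomal gene Laptm5 and the integrin gene Itgax fell by 0.80 ± 0.18 and 1.02 ± 0.20. Itgam rose by 0.96 ± 0.25, with 68.7% of its exonic bases shared with another gene. Adgre1, which encodes F4/80, did not pass (0.81 ± 0.35, adjusted p = 0.068): its KO T6 replicate 2 had 785 CPM, and the other 5 libraries had 2343 to 3524 CPM.

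Markers of other cells were mostly low. Of 12 listed T, B and NK cell markers 7 had enough counts to be tested, the T-cell genes Cd3d, Cd3e and Cd3g having at most 7, 9 and 8 counts in any of the 6 libraries. The sum of those tested was 12.8 to 23.2 CPM at T6 and 11.5 to 18.6 CPM at T16, with 0 called in either direction and 1 called higher with libraries scaled by their totals. Erythroid markers summed to at most 0.53 CPM, and Alas2, Slc4a1 and Hbb-bt were at 0 counts in all 6 libraries. Neutrophil and granulocyte precursor markers summed to 623 to 759 CPM at T6 and 374 to 472 CPM at T16. Of 15 tested, 9 fell and 2 rose. The risers were Mmp8 and Cxcr2, and Cxcr2 lost its call without KO T6 replicate 2. Among the fallers, Ngp, a granule protein, had 251, 159 and 193 CPM at T6 and 86.7, 99.7 and 76.9 CPM at T16 (-1.19 ± 0.28, adjusted p = 0.0013). Dendritic cell markers summed to 307 to 413 CPM at T6 and 103 to 114 CPM at T16, with 5 of 11 lower, most of the sum being Tcf4 (347, 283 and 385 CPM at T6 and 98.2, 87.3 and 92.6 CPM at T16). Of these dendritic cell markers, 2 fell without KO T6 replicate 1 and 3 without KO T16 replicate 1 or 3. With libraries scaled by their totals 2 fell. Mast cell markers summed to 189 to 225 CPM at T6 and 20.8 to 27.8 CPM at T16, nearly all of it the histidine decarboxylase gene Hdc (-3.24 ± 0.28), which activated macrophages also express, and of the defining mast cell genes Cpa3 had at most 5 counts, Tpsab1 at most 1, and Mcpt4 and Tpsb2 0 in every library. Stromal and endothelial markers summed to 169 to 361 CPM at T6 and 181 to 361 CPM at T16, with 1 of 13 higher and 1 lower. The part of other cells in the falls of the gene groups above was not tested.

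The same step in WT libraries, which share no library with the KO groups, gave similar totals: 3587 genes rose (22.7%) and 3080 fell (19.5%), together 42.2% of those tested. Of the genes called in KO, 74.5% were called the same way in WT, and of those called in WT, 81.3% were called the same way in KO; 2891 rose and 2526 fell in both, and 5 went in opposite directions. Across the 15782 genes, which are not independent replicates, the steps had a Pearson r of 0.836. The median WT step was 0.91 of the KO step among genes called in KO. Cytokines had 19 of 26 lower with a median of -2.52 in WT, chemokines 15 of 23 with -1.19, and interferon genes 41 of 50 with -1.26, beside the KO medians of -2.44, -1.37 and -1.10. Some lists were less alike. Oxidative phosphorylation subunits had 11 higher and 1 lower in WT (median 0.18), beside 1 and 7 in KO (-0.25). Ribosome biogenesis factors had 19 higher and 1 lower in WT, beside 11 and 7 in KO. The TCA cycle list had 10 higher and 3 lower in WT, beside 7 and 9 in KO.

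**Figure D5:**
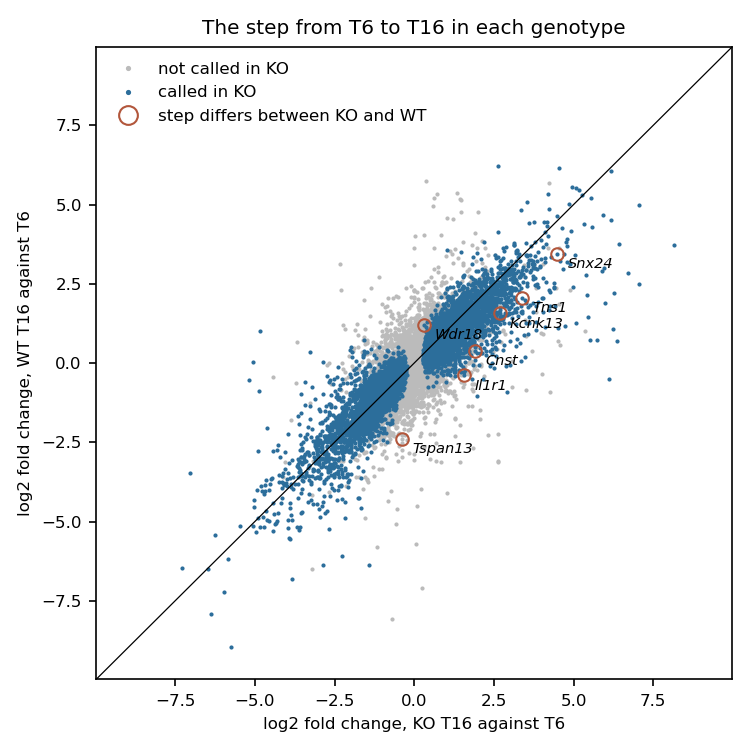
Log2 fold change from T6 to T16 in WT (vertical) against that in libraries labelled KO (horizontal) for 15782 genes; blue points were called in KO, the line marks equal steps and circles mark the 7 genes whose steps differed. Most points follow the line, and 6 of the 7 circled genes lie below it, with the KO step more positive.

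A direct test of the difference between the steps called 7 genes (0.0444% of those tested), 6 with a more positive step in KO (0.038%) and 1 with a more negative one (0.00634%); 1213 (7.69%) had an unadjusted p under 0.05. Tspan13, a tetraspanin, had 45.004, 66.4 and 46.8 CPM at KO T6 and 37.1, 38.4 and 44.9 CPM at KO T16, against 31.8, 41.6 and 30.4 CPM at WT T6 and 6.45 and 6.83 CPM at WT T16. It fell in WT, and the steps differed by 1.99 ± 0.27 (adjusted p = 0.00726). In KO its log2 fold change was -0.39 ± 0.17 (adjusted p = 0.071), a fall that passed with DESeq2 size factors (adjusted p = 0.0271), with the DESeq2 test (0.0201) and without KO T6 replicate 1 (0.0411). Tns1, which links integrins to actin, rose in both genotypes, from 7.63, 6.30 and 5.55 to 68.8, 67.7 and 67.3 CPM in KO and from 6.67, 6.16 and 5.52 to 24.1 and 27.2 CPM in WT, with a difference of 1.32 ± 0.21 (adjusted p = 0.0252). Kcnk13, a potassium channel gene, had 6.79, 6.36 and 6.91 and 40.1, 46.9 and 41.8 CPM in KO and 15.7, 15.7 and 15.3 and 48.6 and 44.3 CPM in WT (1.1 ± 0.18, adjusted p = 0.0252). For Kcnk13 the genotypes lay apart at T6 and close at T16, and for Tns1 the reverse.

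Cnst, which encodes the connexin-trafficking protein consortin, had 7.81, 6.01 and 7.05 CPM at KO T6 and 26.3, 26.5 and 25.95 CPM at KO T16, against 14.2, 12.9 and 11.8 and 21.3 and 12.7 CPM in WT (1.52 ± 0.23, adjusted p = 0.0151). Snx24 differed by 1.05 ± 0.18 (adjusted p = 0.0316), with WT libraries at 3.80, 4.38 and 3.68 CPM at T6 and 42.6 and 43.2 CPM at T16. Wdr18, a ribosome biogenesis factor, had 14.4, 17.1 and 16.3 and 20.05, 19.5 and 19.7 CPM in KO and 18.98, 16.6 and 20.6 and 41.1 and 45.6 CPM in WT (-0.9 ± 0.16, adjusted p = 0.0497). The KO libraries of Wdr18 barely rose while both WT T16 libraries were more than 1.9 times every WT T6 library. Il1r1, the interleukin-1 receptor, is below the level set for naming and was chosen after its values were seen: it had 5.33, 4.06 and 4.28 and 12.4, 14.8 and 13.3 CPM in KO and 3.74, 3.43 and 4.29 and 3.13 and 2.70 CPM in WT (1.95 ± 0.35, adjusted p = 0.0497). The next genes by p, Arhgap26 and Inpp4a, did not pass (-1.3 ± 0.24 and 1.19 ± 0.23, adjusted p = 0.0657 and 0.0669).

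These calls rest on 2 WT T16 libraries, whose correlation with each other was 0.9655. In WT T16 replicate 2 and WT T6 replicate 1 the Y-linked transcripts summed to 42.8 and 87.6 CPM and Xist had 0.14 and 0.352 CPM, while the other 9 libraries of the comparison had at most 0.0673 CPM of Y-linked transcripts and 295 to 574 CPM of Xist. The WT groups thus mix the sexes and the KO groups do not. Without WT T16 replicate 2, 0 genes were called, and without WT T16 replicate 1, 756 were. Each of these fits has a WT T16 group of 1 library, which is assumed to vary like the other groups. No member of any list was called for a difference. For ribosomal proteins, 4 of 48 fell in WT (median -0.43) against 35 of 48 in KO, but 0 of the 48 passed the test of the difference: Rpl4 had a WT step of -0.35 ± 0.15 and a difference of -0.73 ± 0.19 (adjusted p = 0.29). Trib1 and Nos2 had WT steps of 0.32 ± 0.25 and -4.74 ± 0.97, and their differences from the KO steps did not pass either (1.14 ± 0.34 and 1.93 ± 1.06, adjusted p = 0.34 and 0.71). For Stk40 the difference between the steps was 0.16 ± 0.23 (adjusted p = 0.88).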

How the data were processed

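Polyadenylated RNA of BMDMs was sequenced as single-end 50 bp reads from TruSeq version 2 libraries, which do not mark strand, per the labels' protocols, so overlapping genes on opposite strands share reads. The submitters' processing notes name GSNAP and GRCm38; their versions, the annotation and the counter are not given in those sources. The authors deposited raw counts of uniquely aligned reads per gene, per the file headers, and size-factor-adjusted RPKM, which were used only to check the tables (identical in 23 of 23 libraries).

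All tests used the deposited counts, with edgeR 4.0.16 in R 4.3.3. The filter filterByExpr left 15782 of 52636 genes, libraries were scaled by TMM, and a robust quasi-likelihood model of group means was fitted to all 23 libraries (common biological coefficient of variation 0.217). Levels are TMM-scaled CPM. Log2 fold changes are those of the fitted model with edgeR's default prior count, and correlations between libraries use log2 CPM with a prior count of 1. Totals were 19455080 to 44097733 counts per library. Replicates of a group differed by more than counting noise (chi-square at least 13.92 times its degrees of freedom). The ratio was highest, at 188.1, for the pair of WT T16 libraries. It was 166.3 and 172.5 for KO T6 replicate 2 against replicates 1 and 3, and 15.33 between those replicates. Coordinates and exonic overlaps are from GENCODE mouse release 21, promoters from RefSeq (GRCm38.p6).

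Groups follow the genotype and time labels; replicates are numbered in accession order, which is that of the deposited sample sheet in 23 of 23 libraries. The members and gene lists were chosen with earlier results of these data known. Named genes are Stk40; the 12 largest log2 fold changes each way among called genes with a symbol that is not a Gm or Rik model, a mean of at least 10 CPM and no overlap between groups; up to 4 called members of each list with the lowest p each way; and the 8 lowest p for the difference of steps at a mean of at least 10 CPM. Other named genes are said to be chosen after their values were seen, or are well known members that did not pass. A few genes that the rule names are not reported here. Lists were described by counts and medians only.

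The edgeR script was tested on simulated data. Alternatives were other scalings, filters, fits and tools, and leaving out libraries.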

Additional observations from a re-analysis of the deposited data

Results flagged for a closer look

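Each of 7 genes was singled out because the step from T6 to T16 differed between the genotypes by the edgeR test of the difference itself (adjusted p under 0.05). The difference, KO step minus WT step on the log2 scale, was 1.99 for Tspan13 (adjusted p = 0.00726), 1.52 for Cnst (0.0151), 1.32 for Tns1 (0.0252), 1.10 for Kcnk13 (0.0252), 1.05 for Snx24 (0.0316), 1.95 for Il1r1 (0.0497) and -0.90 for Wdr18 (0.0497). With the WT libraries that carry Y-linked transcripts left out, the differences of Tspan13, Cnst, Tns1, Kcnk13, Il1r1 and Wdr18 were 2.08, 1.12, 1.33, 1.03, 1.87 and -0.83, and none passed; the WT T16 group then holds 1 library, assumed to vary like the other groups. Groups of 3 libraries or fewer are too small for a check of single outlying values.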

How the results depend on the processing

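For the step in libraries labelled KO (3821 higher, 3448 lower), leaving out single KO libraries gave 3340 to 3736 higher and 2888 to 3256 lower. With libraries scaled by their totals the median over all genes was 0.41 in place of 0.03, with 5954 higher and 1935 lower, so that 75.5% of calls were higher in place of 52.6%; with DESeq2 size factors in edgeR the share was 46.4% (3387 higher, 3905 lower) and with the DESeq2 test 46.4% (3482 and 4030). A minimum of 5 CPM left 8992 genes, of which 2465 rose and 2483 fell. No filter on low counts, the 6 libraries alone, a fit that is not robust and a replicate block gave counts within 1.5 times of the main ones.

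The difference between the steps was less stable. Its 7 calls became 2 with library totals, 0 with only the libraries of the contrast (641 at an unadjusted p under 0.05), 4 with the replicate block, 78 with DESeq2 and 0 once the WT libraries that carry Y-linked transcripts were left out (772 at an unadjusted p under 0.05); leaving out single libraries gave 0 to 756. The alternatives of the replicate block and of leaving out those WT libraries were chosen after seeing the data. Same-numbered KO T6 and T16 libraries did not deviate together (r of 0.02, -0.13 and -0.05), beside -0.25 to 0.22 for differently numbered ones. So few values cannot decide whether the libraries are paired, and the labels do not say. With the block, 3995 genes rose and 3505 fell.

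Of the log2 fold changes of named genes under the alternatives, 3766 kept direction and side of the threshold, 147 lost the call, 3 gained it and 0 reversed. The cause of these changes was not tested. Depth limits genes under about 1 CPM, where single libraries hold few counts.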
